A study of Mus musculus with 36 samples.

Results

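The comparison described here set mouse embryonic fibroblasts that lack the protein kinase PKB alpha (PKBa-/-) against wild type fibroblasts at time 0 of a time course, before any of its later times. It rests on 8 of the 36 arrays of the series, chosen by their labels: 4 PKBa-/- arrays and 4 wild type arrays, replicates 1 to 4 of each genotype at time 0. All 12393 genes that the arrays read were taken, and 7436 of them were bright enough to be tested. The question was how far the baseline transcriptomes of the genotypes differed.

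Per the labels, the fibroblasts came from 13.5-day embryos of crosses between mice heterozygous for the PKBa deletion, after removal of the head and the visceral organs, and were used at passages 15 to 20 in DMEM with 10% foetal calf serum. Wild type cells carried intact PKBa and PKBa-/- cells carried none. The time points have no unit in the labels, the series' design text speaks of DMEM, and the protocol also describes a medium for adipocyte induction that was given to cells 2 days after confluence. The number of embryos or lines behind each genotype is not given in the labels, so that a difference between genotypes and one between cell preparations cannot be told apart. Nor do the labels say that replicates were separate cultures, and the p-values then measure only the spread between these samples, which may be technical.

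PKB alpha, the product of Akt1, is a serine/threonine kinase downstream of phosphatidylinositol 3-kinase. Insulin and growth factors activate the lipid kinase, PKB is recruited to the membrane and phosphorylated there, and it then acts on substrates such as GSK3, TSC2 and the FoxO factors that bear on growth, survival and metabolism. Embryonic fibroblasts are a mixed population of mesenchymal cells. Such cells keep in culture a pattern of Hox gene expression that reflects the body region they came from.

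Each value below is a signal, the linear intensity that the authors deposited for a probe set, or a difference on the scale of log2(signal + 32), PKBa-/- minus wild type, ± SE. Genes were read on their brightest probe set, and levels were not compared between genes. The files give no measure of background, so folds against groups read as dim are not given. Within a group, replicates 1 and 2 resembled each other, as did replicates 3 and 4: at time 0 the correlation of log2 values across genes was 0.993 on average within a pair and 0.975 with the other pair, and 0.878 between genotypes. The arrays of a pair were therefore averaged before the limma fit, and a gene is said to have passed when its adjusted p was under 0.05. The wild type pairs differed most, with 111 of the tested genes at least 2-fold apart between them, against 12 in PKBa-/-. Array medians at time 0 lay between 136 and 144, and precision is limited by how few arrays there were.

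At time 0, 1102 of the 7436 genes passed (14.8%), of which 482 (6.48%) were higher and 620 (8.34%) lower in PKBa-/-. At least 2-fold differences were found in 128 of the higher and 233 of the lower genes, and at least 8-fold ones in 9 and 36. The median difference of all tested genes was 0.03. For 1100 of the genes that passed, the 4 arrays of one genotype all lay above those of the other, which was so for 43.6% of all tested genes. None of the genes that passed had opposite signs in replicates 1 and 2 and in replicates 3 and 4, while 21.0% of all tested genes did. Both counts follow largely from the call itself, which was made on the pair averages of these arrays, and are not separate support for it. Across the tested genes the differences of the 2 replicate pairs correlated at 0.852, and genes are not independent replicates. With each array taken as a replicate of its own, 3072 genes passed (41.3%), 1551 higher and 1521 lower, and all 1102 genes were among them. With the pair as a random effect on the arrays, 1472 genes passed (19.8%).

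**Figure D1:**
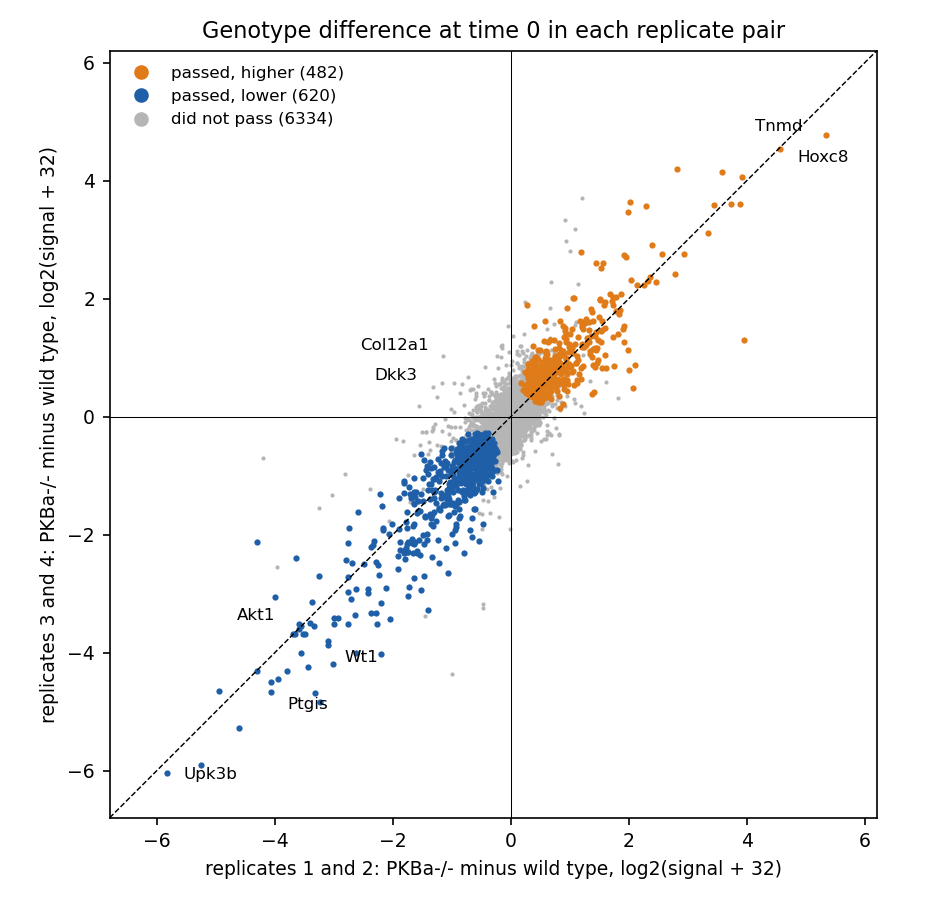
Difference of each of the 7436 tested genes in replicates 1 and 2 (x axis) and in replicates 3 and 4 (y axis), both as PKBa-/- minus wild type on the scale of log2(signal + 32). Genes that passed are in colour and lie in the quadrants of equal sign, which the call on pair averages favours. The named genes at the ends of the cloud, Tnmd and Upk3b among them, are close to the diagonal.

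The targeted gene checked the labels. Akt1 signal was 1334, 1354, 903 and 1101 in wild type and 96.9, 69.2, 61.6 and 54.7 in PKBa-/-. Every PKBa-/- array was far below every wild type array. The difference was -3.55 ± 0.20 (adjusted p = 1.2e-07), with means of 1173 ± 214 in wild type and 70.6 ± 18.5 in PKBa-/- (SD, n = 4 each). A further Akt1 probe set read 949 ± 133 against 51.3 ± 5.41. The gene of the related kinase PKB beta, Akt2, read 682, 680.1, 595 and 609 in wild type and 627, 616, 609 and 665 in PKBa-/-. Its groups overlapped, and the difference was -0.02 ± 0.14 (adjusted p = 0.92).

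Of the 19 tested genes of the Akt and phosphatidylinositol 3-kinase list, 1 was higher and 3, Akt1 included, were lower (5.26% higher and 15.8% lower, beside 6.48% and 8.34% of all tested genes), with a median difference of 0.13. All shares of a list given in brackets from here on stand beside those 6.48% higher and 8.34% lower. Inppl1 encodes SHIP2, a phosphatase that removes the 5-phosphate of the lipid messenger, and was lower at 1042 ± 57.5 against 720.1 ± 41.1 (-0.51 ± 0.13, adjusted p = 0.016). Pik3r1, the p85 regulatory subunit of the lipid kinase, was lower at 202 ± 11.04 against 102 ± 13.8 (-0.81 ± 0.23, adjusted p = 0.035), and the phosphatase gene Phlpp1, whose product dephosphorylates Akt, was higher at 188 ± 50.4 against 392 ± 13.5 (0.98 ± 0.30, adjusted p = 0.045). Both calls were close to the threshold: without PKBa-/- replicate 2 the adjusted p of Pik3r1 was 0.0535, and without wild type replicate 2 that of Phlpp1 was 0.0514. The kinase genes Pdpk1 (0.48 ± 0.20), Mtor (-0.22 ± 0.20) and Gsk3b (0.13 ± 0.15) did not pass. Among 16 tested FoxO factors and targets, which PKB restrains when it is active, none was higher and 1 was lower (0% higher and 6.25% lower), near the share of all tested genes, with a median of -0.04. That gene was Sesn1 (-0.62 ± 0.19, adjusted p = 0.045), which did not pass without wild type replicate 1 or PKBa-/- replicate 1 (adjusted p = 0.0597 and 0.0503). Foxo1 differed by -0.38 ± 0.20 (adjusted p = 0.25) and Foxo3 by -0.09 ± 0.19 (adjusted p = 0.78). Dimmer Foxo1 probe sets, which were not tested, differed by -0.56 (259 ± 24.0 against 165 ± 15.2), -0.46 and 0.19. The positive sign was in the dimmest, at 68.0 against 81.7.

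Xist, the RNA that coats an inactive X chromosome, was read in all 8 arrays, at 5428, 5451, 6064 and 5486 in wild type and 3182, 3630, 2564 and 3115 in PKBa-/-. It was lower in each PKBa-/- array than in any wild type array (-0.85 ± 0.13, adjusted p = 0.0011). The Y-linked genes Eif2s3y, Kdm5d and Uty lay below the limit for testing, with means of 11.3 and 11.2, 53.4 and 71.1, and 19.3 and 19.7 in wild type and PKBa-/-.

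**Figure D2:**
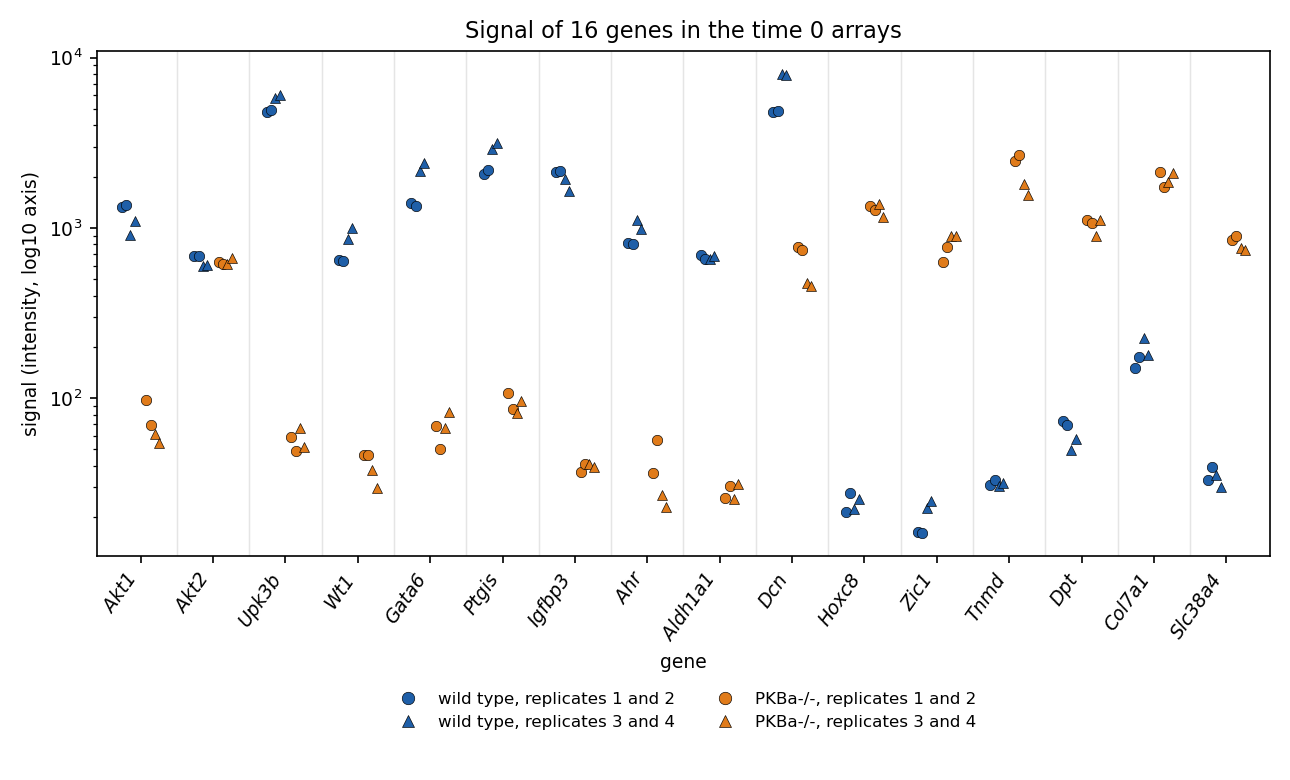
Signal of 16 genes in each time 0 array on a log10 axis, wild type in blue and PKBa-/- in orange, with circles for replicates 1 and 2 and triangles for replicates 3 and 4. Akt2 overlaps between the genotypes, while the other genes shown, from Akt1 and Upk3b to Hoxc8 and Tnmd, have all arrays of one genotype on one side.

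Genes of the mesothelium, the epithelial lining of the body cavities, stood among those with the largest differences, and 10 of the 15 tested were lower in PKBa-/- with none higher (0% higher and 66.7% lower). The median difference of these 15 was -3.49, against 0.03 for all tested genes. The limit on dim genes bears on both values, since a gene bright in wild type alone passes it: with no limit, 15 of 24 members were lower and none higher, and the median was -1.64. Of the 15 tested, 12 had a difference below 0 and 3 one above it, up to 0.34. Upk3b, a uroplakin found in urothelium and mesothelium, had the largest difference of any gene that passed. Its signal was 4804, 4911, 5811 and 6055 in wild type and 59.1, 48.7, 66.9 and 51.6 in PKBa-/-. The wild type arrays were bright and the PKBa-/- arrays dim (-5.93 ± 0.17, adjusted p = 1.2e-09). Wt1, a zinc-finger factor of mesothelium and the developing gonad and kidney, read 649, 638, 865 and 993 in wild type and 46.3, 46.6, 37.999 and 29.4 in PKBa-/-. No array of one genotype reached those of the other (-3.49 ± 0.25, adjusted p = 1.1e-06).

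Gata6, a zinc-finger transcription factor of mesoderm and endoderm, read 1407, 1350, 2152 and 2391 in wild type and 68.9, 49.99, 66.3 and 82.3 in PKBa-/- (-4.20 ± 0.31, adjusted p = 1.5e-06). Wild type replicates 3 and 4 were higher than wild type replicates 1 and 2, and all 4 were far above PKBa-/-. The secreted Wnt agonist Rspo1 had 1304 ± 114 against 35.2 ± 1.78 (-4.31 ± 0.18) and the membrane glycoprotein gene Gpm6a 898 ± 159 against 15.4 ± 0.945 (-4.28 ± 0.14). The sialomucin Podxl had 1164 ± 139 against 61.2 ± 2.96 (-3.68 ± 0.17) and the zinc-finger gene Bnc1 1011 ± 107 against 53.7 ± 4.90 (-3.60 ± 0.18), with adjusted p between 1.3e-09 and 3.9e-08 for these 4. The other lower members were the retinaldehyde dehydrogenases Aldh1a1 and Aldh1a2, described with the retinoid genes, and the cadherin gene Cdh3, which differed by -0.59 ± 0.17. Cdh3 (adjusted p = 0.033) did not pass without PKBa-/- replicate 2 or 4 (adjusted p = 0.0582 and 0.0637). The list was written with earlier results of these data known and is not independent evidence of its direction.

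Cell type markers were read as a check of the labelled fibroblasts. All 12 fibroblast markers had a mean over 200 in at least 1 genotype, and their summed signal ran from 57620 to 61010 in wild type and from 66023 to 71297 in PKBa-/-. The 8 measured mesothelial markers summed to between 6147 and 7792 in wild type arrays and to between 502 and 566 in PKBa-/- arrays. Most of the wild type sums came from Upk3b alone, and 3 of the 8 had a mean over 200 in a genotype. Of the 8, 3 were tested and 2 passed, both lower. The markers named here, Upk3b, Wt1, Msln and Krt7, were all dimmer in PKBa-/-. The others are not given singly, and the brightest marker in PKBa-/- had a mean of 129. Mesothelin, encoded by Msln, was too dim over all arrays to be tested and read 223 ± 31.02 against 37.4 ± 5.77, and the keratin Krt7 read 154 ± 22.9 against 37.3 ± 1.43. The sum of the 6 measured tenocyte markers went the other way, from 1394 to 2418 in wild type and from 5736 to 7316 in PKBa-/-. Of the 4 that were tested, 3 were higher, Tnmd, Fmod and Tnc. Tnmd was the brightest in PKBa-/-, with a mean of 2129. The untested markers are not given singly. Egr1, counted here and again with the immediate early genes, was the brightest of the 6 in wild type (727 ± 282 against 1378 ± 137) and did not pass. In these bulk samples, fewer cells of a type and less RNA per cell cannot be told apart, and the part of these markers' cell types in the other differences was not tested. No skeletal muscle or erythroid marker had a mean over 200 in either genotype.

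Genes that record position along the body axis were higher in some cases and lower in others. Of 14 tested Hox genes and cofactors, 4 were higher and 6 lower in PKBa-/- (28.6% higher and 42.9% lower). Hoxc8, a homeobox gene of the thoracic region, read 21.3, 27.8, 22.3 and 25.6 in wild type and 1344, 1273, 1374 and 1151 in PKBa-/-. It was dim in wild type and bright in every PKBa-/- array (4.55 ± 0.20, adjusted p = 1.8e-08). Hoxc6, its neighbour in the C cluster, was higher as well, at 132 ± 11.02 against 714 ± 36.7 (2.19 ± 0.15), as was Hoxc9 at 168 ± 14.02 against 507 ± 137 (1.40 ± 0.22). Hoxa7 was higher by 0.43 ± 0.12 (adjusted p = 0.024) and did not pass without PKBa-/- replicate 4 (adjusted p = 0.0562).

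Among the Hox genes that passed, the lower ones carry the lower group numbers, which lie towards the head end of the body axis. Hoxa5 read 417, 466, 446 and 441 in wild type and 109, 105, 101 and 92.5 in PKBa-/-. The 2 sets of 4 values were well apart (-1.83 ± 0.11, adjusted p = 2.1e-07). Hoxb2 had 450.3 ± 51.9 against 68.5 ± 7.54 (-2.26 ± 0.16), Hoxa3 242 ± 17.98 against 62.2 ± 8.24 (-1.54 ± 0.15), Hoxb3 405 ± 58.96 against 127 ± 14.8 (-1.45 ± 0.19) and Hoxb4 259 ± 21.7 against 108 ± 11.1 (-1.06 ± 0.17). Meis1, which encodes a partner of Hox proteins on DNA, had 370.4 ± 36.8 against 136 ± 7.39 (-1.26 ± 0.15). A set of 21 Hox genes and cofactors was measured and too dim to be tested, Hoxc4 and Hoxc5 among them, at 51.2 ± 2.45 against 126 ± 13.7 and 47.6 ± 4.50 against 87.99 ± 12.05. Against the order by group number, both were higher with no limit on dim genes (0.92 ± 0.11 and 0.59 ± 0.11, limma adjusted p = 3.3e-04 and 0.0043), like the other Hoxc genes given here. 

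**Figure D3:**
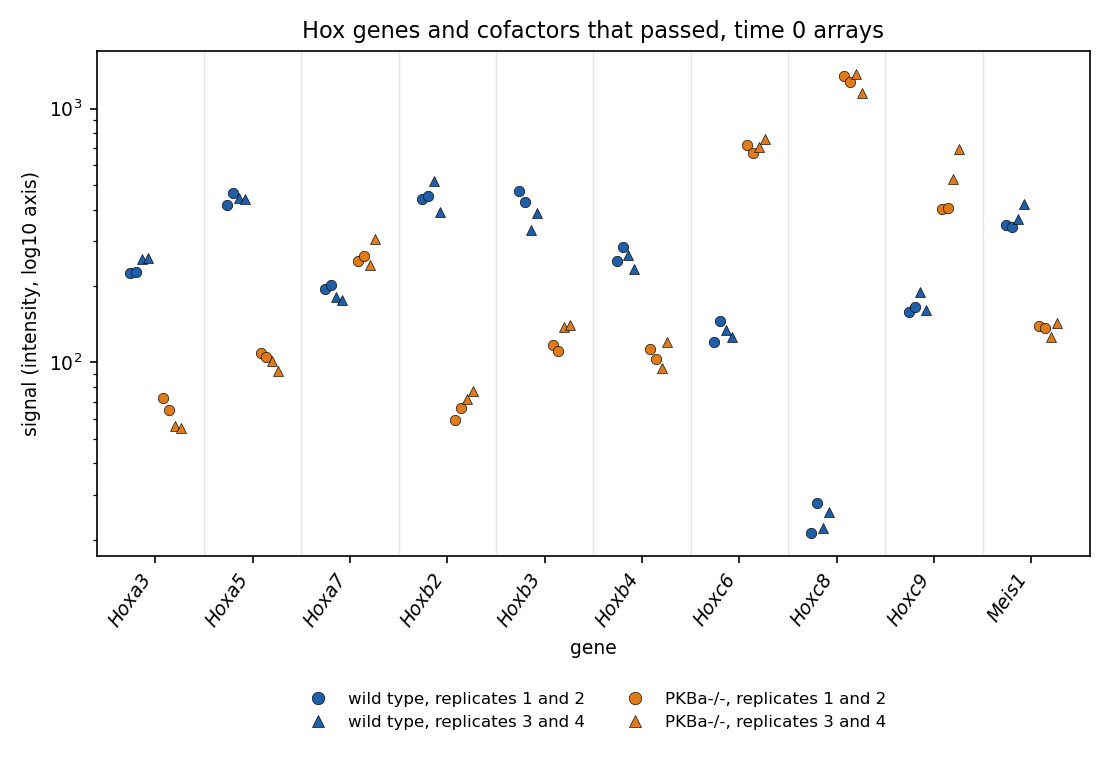
Signal of the 10 Hox genes and cofactors that passed in each time 0 array, on a log10 axis, ordered by gene name, with wild type in blue and PKBa-/- in orange. The 6 lower genes, Hoxa3, Hoxa5, Hoxb2, Hoxb3, Hoxb4 and Meis1, have their PKBa-/- points below all wild type points, and Hoxa7, Hoxc6, Hoxc8 and Hoxc9 above.

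Among 24 tested patterning factors of the mesenchyme, 5 were higher and 2 lower (20.8% higher and 8.33% lower). Zic1, a zinc-finger factor of dorsal tissues, read 16.3, 16.2, 22.6 and 24.9 in wild type and 629, 776, 893 and 899 in PKBa-/-. The wild type arrays were dim and the PKBa-/- arrays bright (3.99 ± 0.18, adjusted p = 1.8e-08). The epithelial-mesenchymal transition factor Snai1 was higher at 261 ± 27.3 against 644 ± 84.9 (1.20 ± 0.17), and the T-box gene Tbx15 at 111 ± 21.5 against 250.2 ± 23.6 (0.98 ± 0.14). Irx5 (0.85 ± 0.15) and Snai2 (0.82 ± 0.15) passed as well. Lower beside Gata6 was the forkhead gene Foxf1, a factor of visceral mesenchyme, at 255 ± 14.9 against 130.0 ± 13.9 (-0.83 ± 0.22, adjusted p = 0.024).

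Genes of the extracellular matrix were higher more often than lower. Of 51 tested glycoproteins and proteoglycans of the matrix, 16 were higher (31.4%, beside 6.48% of all tested genes) and 7 lower (13.7%, beside 8.34%), with a median difference of 0.61. That median was 0.28 with no limit on dim genes, 0.37 with the mean of all probe sets, and 0.34 and 0.40 in the 2 replicate pairs. Tnmd, tenomodulin, a membrane protein of tendon and ligament cells, had the largest difference of the genes that were higher. Its signal was 30.8, 33.2, 30.6 and 31.6 in wild type and 2455, 2687, 1815 and 1560 in PKBa-/-. The wild type arrays were dim and the PKBa-/- arrays bright (5.05 ± 0.24, adjusted p = 2.0e-08). Dermatopontin, encoded by Dpt, read 73.4, 69.8, 49.5 and 57.5 in wild type and 1116, 1065, 891 and 1117 in PKBa-/- (3.51 ± 0.13, adjusted p = 5.1e-09). No wild type array came near the PKBa-/- arrays.

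The heparin-binding growth factor Ptn was high in both genotypes and higher in PKBa-/-, at 1412, 1295, 540.0 and 476 in wild type and 10042, 9389, 10853 and 8948 in PKBa-/- (3.51 ± 0.64, adjusted p = 0.0030). Its wild type pairs differed, so that the difference was 2.82 in replicates 1 and 2 and 4.20 in replicates 3 and 4. Mfap4, a microfibril protein gene, was higher at 580.5 ± 112 against 3811 ± 440.4 (2.66 ± 0.34). Fibromodulin (Fmod, 1.40 ± 0.30) and tenascin C (Tnc, 1.59 ± 0.32), both counted with the tenocyte markers, were higher too. Abi3bp, whose product binds the matrix and is in none of these lists, had 47.3 ± 18.2 against 1098 ± 86.3 (3.86 ± 0.29). Decorin, the small proteoglycan that binds collagen fibrils and TGF-beta, was the lower member with the largest difference. Dcn signal was 4789, 4836, 8042 and 7851 in wild type and 769, 745, 474 and 455 in PKBa-/- (-3.31 ± 0.37, adjusted p = 6.3e-05). It was bright in wild type, most so in replicates 3 and 4, and lowest in PKBa-/- replicates 3 and 4. Ltbp2, a binding protein of latent TGF-beta and microfibrils, was lower at 551 ± 169 against 71.7 ± 30.9 (-2.49 ± 0.43), and Mgp, matrix Gla protein, an inhibitor of calcification, at 7166 ± 911 against 446 ± 202 (-4.01 ± 0.49). Fibronectin (Fn1, -0.19 ± 0.10, adjusted p = 0.21) and periostin (Postn, 1.15 ± 0.46, adjusted p = 0.12) did not pass. A dimmer Fn1 probe set, which was not tested, read 1228 ± 34.1 against 822 ± 69.2 and differed by -0.56.

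The fibrillar collagens that make up the bulk of connective tissue did not pass: Col1a1 read 11121 ± 1085 against 12105 ± 722 (0.13 ± 0.14, adjusted p = 0.57) and Col3a1 8031 ± 626 against 9780 ± 711 (0.28 ± 0.14, adjusted p = 0.21). Of 29 tested collagen chains and collagen-modifying enzymes, 5 were higher and 4 lower (17.2% higher and 13.8% lower). Col7a1, the anchoring fibril collagen, read 149, 175, 224 and 178 in wild type and 2125, 1741, 1853 and 2111 in PKBa-/- (3.23 ± 0.21, adjusted p = 4.8e-07). Each PKBa-/- array was several times brighter than any wild type array. Col6a3, a chain of the microfibrillar collagen VI, read 1451, 1401, 419 and 448 in wild type and 6061, 5732, 6312 and 5264 in PKBa-/- (2.83 ± 0.69, adjusted p = 0.016). Wild type replicates 3 and 4 were the lowest arrays, and wild type replicates 1 and 2 lay between them and PKBa-/-. Col8a1 was higher at 489.8 ± 141 against 1714 ± 239.9 (1.77 ± 0.48). The lower members included 2 enzymes of collagen crosslinking, Plod2, a lysyl hydroxylase, at 3530 ± 303 against 549 ± 43.7 (-2.61 ± 0.16) and Loxl1, a lysyl oxidase relative, at 2679 ± 202 against 383 ± 170.0 (-2.80 ± 0.50), and the basement membrane chain Col4a6 at 647 ± 96.6 against 149.6 ± 31.01 (-1.91 ± 0.20). Tgm2, tissue transglutaminase, which crosslinks matrix proteins, read 4781, 4686, 6046 and 7315 in wild type and 87.98, 99.7, 85.5 and 75.2 in PKBa-/- (-5.57 ± 0.21, adjusted p = 5.1e-09). Every PKBa-/- array read near 100 or below.

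Matrix proteases and their inhibitors were split, with 5 of 30 tested genes higher and 4 lower (16.7% higher and 13.3% lower). Adamts1, a secreted metalloproteinase that cleaves proteoglycans, read 209, 205, 217 and 267 in wild type and 1890, 1691, 1866 and 1748 in PKBa-/- (2.84 ± 0.16, adjusted p = 1.6e-07). The groups were far apart, with little spread within either. Cathepsin K, a collagen-degrading protease encoded by Ctsk, was higher at 87.9 ± 3.63 against 698 ± 115 (2.59 ± 0.13), and the metalloproteinase gene Mmp23 at 119.5 ± 12.2 against 752 ± 99.4 (2.37 ± 0.11). Timp3, an inhibitor of metalloproteinases that is bound to the matrix, read 5567, 6310, 5202 and 5268 in wild type and 776, 722, 426 and 505 in PKBa-/- (-3.17 ± 0.27, adjusted p = 5.6e-06). It was 9.20-fold lower by the means, in both pairs. Mmp2, gelatinase A, did not pass (0.35 ± 0.82, adjusted p = 0.80).

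In the insulin and insulin-like growth factor (IGF) axis, upstream of PKB, 6 of 17 tested genes were lower and 2 higher (11.8% higher and 35.3% lower), with a median of -0.51. The binding proteins, which hold IGFs outside the cell, made up 4 of the lower genes. Igfbp3 read 2138, 2152, 1945 and 1640 in wild type and 36.96, 41.1, 41.2 and 39.1 in PKBa-/- (-4.80 ± 0.54, adjusted p = 7.0e-05). It was bright in wild type and dim in PKBa-/-. Igfbp4 read 3475, 3606, 5127 and 5543 in wild type and 801, 688, 316 and 282 in PKBa-/- (-3.11 ± 0.68, adjusted p = 0.0084). The PKBa-/- pairs differed, with replicates 3 and 4 below replicates 1 and 2. Igfbp2 had 1476 ± 34.7 against 145 ± 54.4 (-3.14 ± 0.39) and Igfbp6 1770 ± 619.6 against 111 ± 17.3 (-3.60 ± 0.29).

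The receptor that clears IGF2 from the surface, Igf2r, was higher at 1006 ± 212 against 2382 ± 326 (1.23 ± 0.19, adjusted p = 7.8e-04), and so was Igf2bp3, which encodes a protein that binds Igf2 messenger RNA, at 225 ± 116 against 926 ± 8.33 (2.02 ± 0.46). Igf2 itself read 5246, 4900, 5047 and 5229 in wild type and 1787, 1875, 467 and 461 in PKBa-/-. All PKBa-/- arrays were below all wild type arrays, but the size differed between pairs, -1.45 in replicates 1 and 2 and -3.38 in replicates 3 and 4, and the difference of -2.42 ± 0.77 did not pass (adjusted p = 0.053). The insulin receptor adaptor Grb10 read 3009, 3142, 642 and 693 in wild type and 125, 124, 119 and 139 in PKBa-/-. Its wild type pairs were several-fold apart and both above PKBa-/- (-3.21 ± 0.97, adjusted p = 0.043), and it did not pass with the mean of all probe sets (adjusted p = 0.0682). The receptor Igf1r (0.04 ± 0.30, adjusted p = 0.93) and the docking protein Irs1 (0.72 ± 0.56, adjusted p = 0.41) did not pass.

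Several of these genes are imprinted, that is expressed from the allele of 1 parent, and of 16 tested imprinted genes 3 were higher and 4 lower (18.8% higher and 25% lower). Nnat, neuronatin, read 901, 918, 503 and 499.8 in wild type and 26.03, 28.3, 31.8 and 32.2 in PKBa-/- (-3.53 ± 0.43, adjusted p = 1.2e-04). All wild type arrays were bright and all PKBa-/- arrays dim. Slc38a4, an amino acid transporter gene, read 32.9, 39.3, 35.5 and 29.9 in wild type and 847, 899.6, 762 and 740.0 in PKBa-/- (3.67 ± 0.15, adjusted p = 1.2e-08). It was the reverse, bright in PKBa-/- alone. Mest read 1755, 1702, 230.4 and 231 in wild type and 3251, 3311, 2772 and 2455 in PKBa-/-. Both wild type pairs lay below PKBa-/-, one of them much closer, and the difference of 2.12 ± 1.10 did not pass (adjusted p = 0.23).

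**Figure D4:**
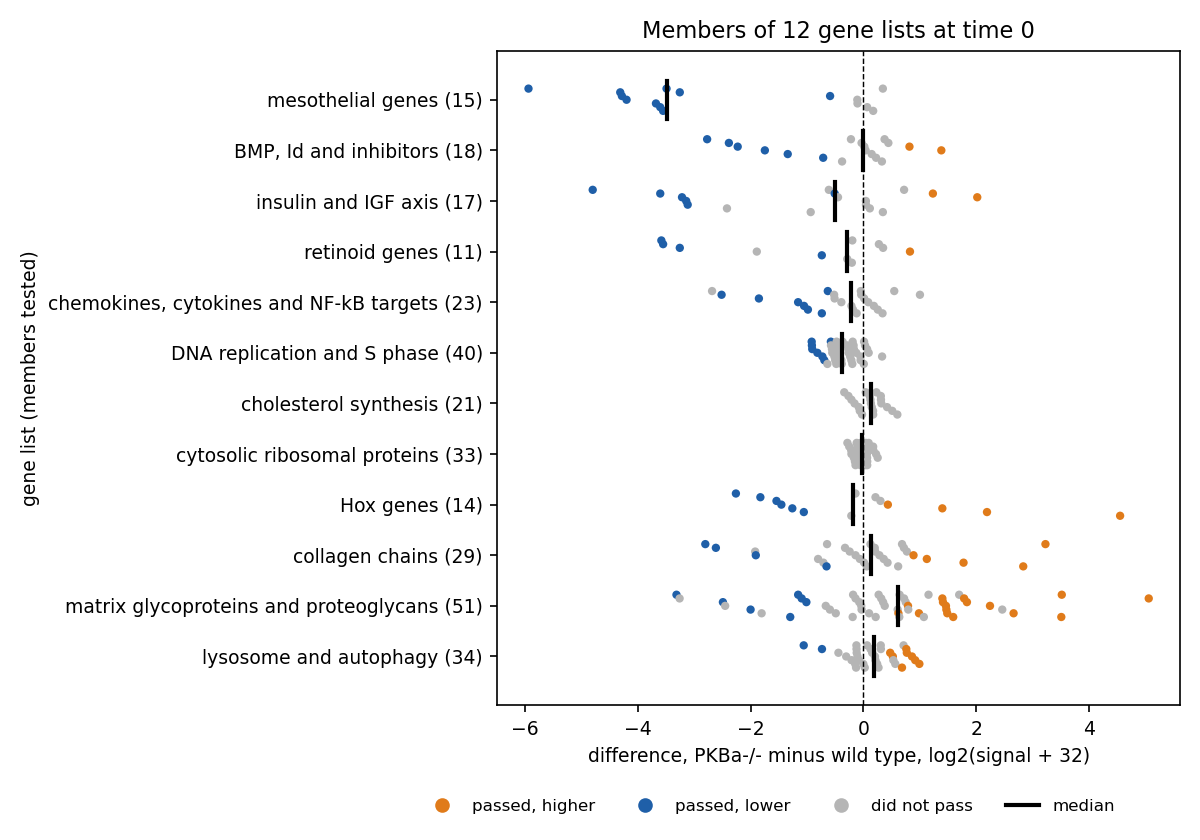
Difference of each tested member of 12 gene lists, PKBa-/- minus wild type on the scale of log2(signal + 32), with members that passed in colour (orange higher, blue lower) and others in grey, and the median of each list as a black bar. The mesothelial list lies furthest to the left with a median of -3.49, and the matrix glycoproteins have a median of 0.61. With no limit on dim genes these medians were -1.64 and 0.28.

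Among genes of bone morphogenetic protein (BMP) signalling, 6 of 18 tested were lower and 2 higher (11.1% higher and 33.3% lower). The inhibitors of differentiation, helix-loop-helix proteins that BMPs induce, were lower in all 4 tested members. Id1 read 1271, 1300, 1669 and 1563 in wild type and 180.5, 183, 163 and 212 in PKBa-/- (-2.77 ± 0.13, adjusted p = 2.3e-08). The wild type arrays lay well above the PKBa-/- arrays, 7.85-fold by the means. Id2 had 609 ± 82.6 against 91.2 ± 20.3 (-2.38 ± 0.15), Id3 2521 ± 562 against 718 ± 66.2 (-1.75 ± 0.18) and Id4 249.9 ± 8.35 against 141 ± 16.7 (-0.71 ± 0.16). The ligand gene Bmp4 read 1804, 1780, 1924 and 1939 in wild type and 589, 618, 215 and 236 in PKBa-/- (-2.23 ± 0.34, adjusted p = 8.5e-04). It was even across wild type arrays and lower in PKBa-/- replicates 3 and 4 than in replicates 1 and 2. The inhibitory Smads, whose genes BMP and TGF-beta induce, were lower too, Smad6 at 434 ± 31.1 against 158 ± 35.4 (-1.31 ± 0.24) and Smad7 at 590.1 ± 97.1 against 263 ± 42.8 (-1.08 ± 0.20). Follistatin, encoded by Fst, which binds activin, was lower at 305 ± 88.8 against 97.7 ± 6.63 (-1.34 ± 0.34), while the receptor gene Acvr2a was higher at 164 ± 42.5 against 471 ± 46.6 (1.38 ± 0.24). In the list of TGF-beta targets and components, 7 of 26 tested genes were lower and 2 higher (7.69% higher and 26.9% lower), with Ccn2, a matrix-associated target of TGF-beta, at 2175 ± 786 against 330.2 ± 109.7 (-2.59 ± 0.72, adjusted p = 0.031). Ccn2 did not pass with an intensity trend (adjusted p = 0.0706) or with no limit on dim genes (adjusted p = 0.0562). Tgfbr2, a receptor, did not pass (0.75 ± 0.39, adjusted p = 0.23).

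For Wnt signalling, 6 of 27 tested ligands, receptors and inhibitors were lower and 3 higher (11.1% higher and 22.2% lower). The Wnt agonists went opposite ways: Rspo1, given above, was lower, whereas Rspo2 was higher at 149, 135, 104 and 81.98 in wild type and 423, 560.2, 418 and 447 in PKBa-/- (1.74 ± 0.21, adjusted p = 1.1e-04). The Rspo2 groups were well apart. The receptors Fzd6 and Fzd7 were lower, at 612 ± 114 against 186 ± 13.97 (-1.55 ± 0.19) and 491 ± 88.02 against 187 ± 17.3 (-1.25 ± 0.24). The ligand Wnt4 was lower at 257, 254, 988 and 1211 in wild type and 69.3, 85.97, 73.6 and 94.8 in PKBa-/- (-2.34 ± 0.68, adjusted p = 0.037), with a difference of -1.40 in replicates 1 and 2 and -3.28 in replicates 3 and 4. The wild type pairs were several-fold apart, and Wnt4 did not pass with an intensity trend, with no limit on dim genes or with an offset of 64 (adjusted p = 0.0816, 0.0652 and 0.0513). Axin2, a common readout of beta-catenin activity, did not pass (-0.40 ± 0.14, adjusted p = 0.082), nor did Ctnnb1, beta-catenin itself (0.01 ± 0.14, adjusted p = 0.97).

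Of 34 tested growth factors and receptor kinases, 8 were lower and 4 higher (11.8% higher and 23.5% lower). Higher were Fgf7, a fibroblast-derived factor for epithelia, at 146 ± 11.3 against 636 ± 91.4 (1.90 ± 0.23), the platelet-derived growth factor gene Pdgfc at 541 ± 42.2 against 1652 ± 176 (1.55 ± 0.19) and the vessel-stabilizing angiopoietin Angpt1 at 52.8 ± 5.62 against 256 ± 48.9 (1.75 ± 0.29). Fgfr2 also passed (0.91 ± 0.20). Lower were Fgf18 at 460.3 ± 230.3 against 73.4 ± 10.8 (-2.11 ± 0.56, adjusted p = 0.0528 with an intensity trend, where it did not pass), stem cell factor, encoded by Kitl, at 520.2 ± 70.7 against 113 ± 24.7 (-1.93 ± 0.28) and the macrophage growth factor Csf1 at 2382 ± 322 against 1182 ± 52.8 (-0.98 ± 0.17). The receptors Pdgfra (-0.52 ± 0.24, adjusted p = 0.18) and Egfr (-0.35 ± 0.20, adjusted p = 0.26) did not pass. Other Egfr probe sets, which were not tested, differed by -1.14 (374 ± 13.3 against 152 ± 4.00), -0.46, 0.15 and 0.22, with positive signs only in dim ones.

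Genes that act on retinoids, the vitamin A derivatives, were lower in 4 of 11 tested and higher in 1 (9.09% higher and 36.4% lower). Retinaldehyde dehydrogenases make retinoic acid. Aldh1a1 read 692, 658, 655 and 687 in wild type and 25.98, 30.4, 25.6 and 31.1 in PKBa-/- and Aldh1a2 542, 536, 552 and 499 in wild type and 19.6, 26.8, 29.1 and 33.8 in PKBa-/-. Both were bright in each wild type array and dim in PKBa-/- (-3.55 ± 0.16 and -3.25 ± 0.20, adjusted p = 1.8e-08 and 2.8e-07). Dhrs3, which reduces retinaldehyde back to retinol and is itself induced by retinoic acid, was lower at 1814 ± 51.3 against 123 ± 18.2 (-3.58 ± 0.16, adjusted p = 2.0e-08). Rdh10, which oxidizes retinol, was lower by -0.74 ± 0.21 and did not pass without PKBa-/- replicate 1 (adjusted p = 0.0694). The retinoic acid receptor Rarb, which retinoic acid induces, was too dim over all arrays to be tested and read 133 ± 27.1 against 43.8 ± 1.86. The nuclear receptor gene Rxra was higher at 263 ± 18.9 against 491 ± 29.6 (0.82 ± 0.13).

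The labels' protocol describes adipocyte induction, so the regulators of that fate were read at baseline. Of 22 tested adipogenic regulators, 4 were higher and 7 lower (18.2% higher and 31.8% lower). Among the C/EBP factors, Cebpd, one of the first to be induced in adipogenesis, read 367, 371, 882 and 944 in wild type and 172, 231, 183 and 137 in PKBa-/- (-1.55 ± 0.34, adjusted p = 0.0082). It was lower in all PKBa-/- arrays, and wild type replicates 3 and 4 were more than 2-fold above replicates 1 and 2. Cebpb (-0.80 ± 0.26, adjusted p = 0.057) and Cebpa (0.11 ± 0.19, adjusted p = 0.73) did not pass. Pparg, the master regulator, was too dim to be tested, at 49.2 ± 4.06 against 75.8 ± 7.98. The factor Klf4 was lower at 335 ± 107 against 82.8 ± 15.8 (-1.64 ± 0.27), and Ebf1, a factor that favours adipogenesis, was higher at 52.8 ± 12.8 against 257 ± 92.1 (1.72 ± 0.36), as was the chondrocyte factor Sox9 at 113 ± 14.9 against 303 ± 37.9 (1.20 ± 0.18). Of 10 tested genes of mature adipocytes only lipoprotein lipase passed (0% higher and 10% lower). Lpl, also made by other mesenchymal cells, read 3221, 2935, 5384 and 4930 in wild type and 771, 1057, 589 and 754 in PKBa-/- (-2.31 ± 0.25, adjusted p = 4.4e-05). All PKBa-/- arrays were below wild type.

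DNA replication genes leaned one way with modest sizes. Of 40 tested, 7 were lower (17.5%, beside 8.34% of all tested genes) and none was higher, with a median difference of -0.39 (-0.19 in replicates 1 and 2 and -0.55 in replicates 3 and 4), and in 23 all PKBa-/- arrays lay below all wild type arrays (57.5%, beside 20.3% of all tested genes). Mcm7, a subunit of the replicative helicase, read 2065, 2035, 2658 and 2668 in wild type and 1249, 1307, 1234 and 1140 in PKBa-/- (-0.91 ± 0.22, adjusted p = 0.016). Its PKBa-/- arrays were even, and wild type replicates 3 and 4 were above replicates 1 and 2. Rpa1, which coats single-stranded DNA, had 2181 ± 439 against 1124 ± 52.4 (-0.92 ± 0.25), Dut, which removes dUTP from the nucleotide pool, 412 ± 28.98 against 205 ± 26.8 (-0.91 ± 0.21), and Cdt1, which licenses origins, 1025 ± 132 against 565 ± 21.6 (-0.82 ± 0.19). The polymerase alpha subunit Pola1 had 251 ± 20.9 against 158 ± 15.2 (-0.58 ± 0.15), with adjusted p of 0.011 to 0.029 for these 4. The clamp loader subunit Rfc5 (-0.73 ± 0.22) and the ribonucleotide reductase subunit Rrm2 (-0.69 ± 0.21) passed at adjusted p = 0.043 and 0.041. Rfc5 did not pass without replicate 1 or replicate 3 of either genotype (adjusted p from 0.0514 to 0.0582), nor Rrm2 without PKBa-/- replicate 1 or 4 (adjusted p = 0.0885 and 0.0555). Pcna, the sliding clamp, did not pass (-0.38 ± 0.19, adjusted p = 0.20).

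**Figure D5:**
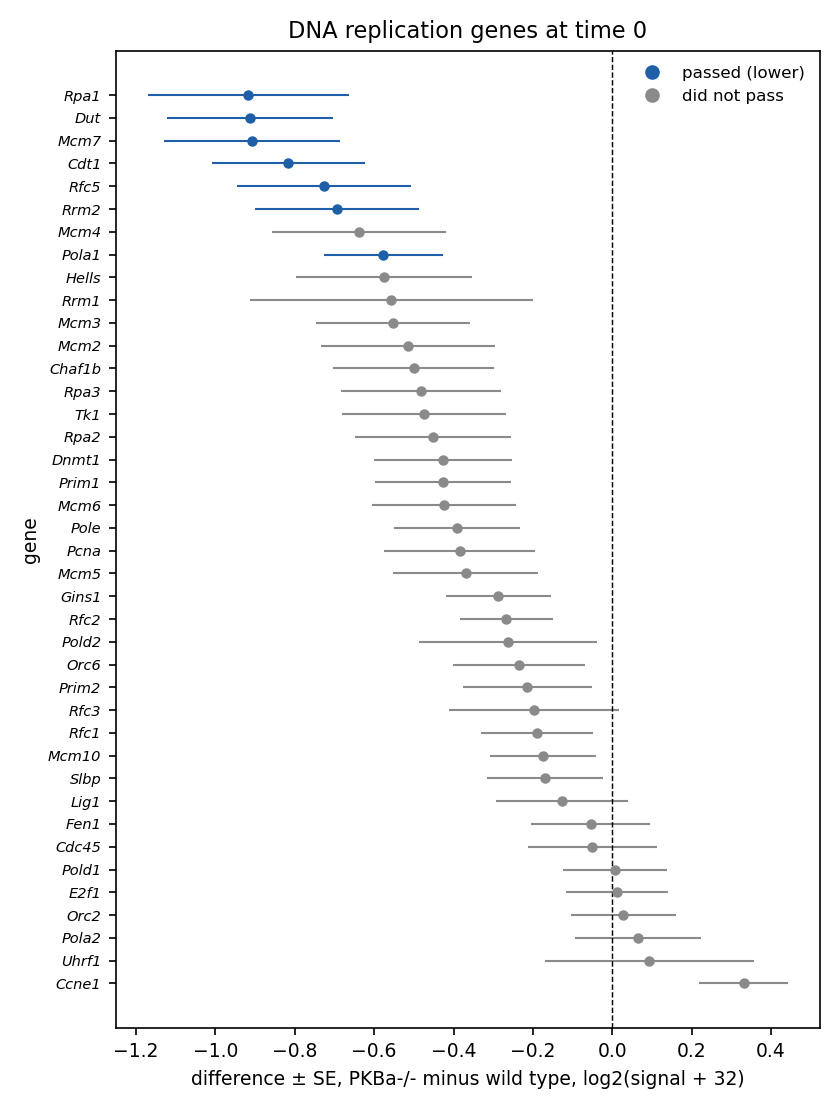
Difference ± SE of each of the 40 tested DNA replication genes, PKBa-/- minus wild type on the scale of log2(signal + 32), ordered by size, with genes that passed in blue and the others in grey. Most genes lie left of the dashed line at 0, and the 7 that passed, from Rpa1 to Pola1, are the blue points.

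E2F factors bind the promoters of many replication genes, and the members were searched for 2 E2F core motifs, TTCCCGC and TTGGCGC, on either strand, in the 300 bases from 250 before to 50 after the gene's start in RefSeq (GRCm38.p6). A promoter was found for 35 of the 40 tested genes, and 18 of them (51.4%) held a match, beside 14.9% of all tested genes with a promoter and 7.79% of all genes in the promoter table. Of the 7 genes that passed, 3 held a match, Mcm7, Cdt1 and Pola1, and their promoters are shown as the lower genes that carry the motif, with the matches in capitals. Their positions are chr5:138171834-138172133, minus strand, for Mcm7, the first of 2 starts in the table, chr8:122567765-122568064, plus strand, for Cdt1, and chrX:93632106-93632405, minus strand, for Pola1.
Mcm7: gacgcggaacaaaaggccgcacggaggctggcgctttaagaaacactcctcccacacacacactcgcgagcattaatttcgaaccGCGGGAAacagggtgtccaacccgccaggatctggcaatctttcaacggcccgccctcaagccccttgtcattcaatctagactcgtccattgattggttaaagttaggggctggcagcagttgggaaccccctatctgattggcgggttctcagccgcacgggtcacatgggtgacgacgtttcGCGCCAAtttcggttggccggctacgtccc
Cdt1: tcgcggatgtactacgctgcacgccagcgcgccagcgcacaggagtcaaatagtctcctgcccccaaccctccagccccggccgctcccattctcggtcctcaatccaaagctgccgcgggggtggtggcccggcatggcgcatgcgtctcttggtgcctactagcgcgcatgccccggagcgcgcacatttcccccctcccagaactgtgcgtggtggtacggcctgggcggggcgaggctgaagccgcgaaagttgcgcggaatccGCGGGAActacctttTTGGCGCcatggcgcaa
Pola1: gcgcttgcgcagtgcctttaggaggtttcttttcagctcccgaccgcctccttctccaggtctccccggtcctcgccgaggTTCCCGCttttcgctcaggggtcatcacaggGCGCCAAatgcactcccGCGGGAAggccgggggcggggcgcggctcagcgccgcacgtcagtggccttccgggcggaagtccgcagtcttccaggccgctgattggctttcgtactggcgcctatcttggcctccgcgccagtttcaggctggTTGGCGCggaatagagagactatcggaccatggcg
Pola1 held 4 matches, Cdt1 2 that both lie after the start, and Mcm7 2 here. No match was found in these windows of Rrm2, Rfc5, Dut and Rpa1. Among all genes that were lower, 16.1% of those with a promoter held a match, close to the 14.9% of all tested genes.

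Mitosis genes, read on 42 tested members, had 3 lower and none higher (0% higher and 7.14% lower), a lower share near that of all tested genes, with a median of -0.17: Cks2, a small partner of cyclin-dependent kinases, at 1251 ± 253 against 581 ± 64.1 (-1.05 ± 0.17), the cytokinesis scaffold Anln at 590.3 ± 51.5 against 333 ± 47.1 (-0.78 ± 0.18) and the mitotic kinase Cdk1 at 1004 ± 143 against 588 ± 70.4 (-0.74 ± 0.17). Their adjusted p was 0.0012, 0.013 and 0.012. The proliferation marker Mki67 did not pass (-0.12 ± 0.19, adjusted p = 0.71). Among 22 tested p53 targets, 3 were lower and none higher (0% higher and 13.6% lower), with Gadd45b, a stress-induced regulator of cell cycle arrest, at 1692 ± 259 against 779.8 ± 41.6 (-1.08 ± 0.15, adjusted p = 3.5e-04). Cdkn1a, which encodes the inhibitor p21, did not pass (-0.44 ± 0.31, adjusted p = 0.36). None of 33 tested ribosomal protein genes passed in either direction, with an unadjusted p under 0.05 in 2, nor did any of 21 tested cholesterol synthesis genes, with 1. With arrays as replicates, 7 ribosomal protein genes and 5 cholesterol synthesis genes passed. The cholesterol genes took opposite medians in the replicate pairs, -0.14 in replicates 1 and 2 and 0.47 in replicates 3 and 4.

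Detoxification genes were among the lower genes, and of 4 tested genes of the aryl hydrocarbon receptor and its targets 2 were lower and none higher (0% higher and 50% lower). Ahr encodes the aryl hydrocarbon receptor, a ligand-activated factor that induces cytochromes P450, and read 816, 799, 1112 and 990.0 in wild type and 36.5, 56.4, 26.9 and 22.9 in PKBa-/-. It was bright in wild type and dim in PKBa-/- (-3.84 ± 0.28, adjusted p = 1.2e-06). A dimmer Ahr probe set read 198 against 109 and differed by -0.66, so that the direction was shared and the size was not. Cyp1b1, a cytochrome P450 that the receptor induces, read 2245, 2243, 3214 and 3420 in wild type and 642, 605, 585 and 612 in PKBa-/- (-2.10 ± 0.27, adjusted p = 1.6e-04). The PKBa-/- arrays were even and several-fold dimmer.

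Of 31 tested NRF2 targets and glutathione enzymes, 7 were lower and 3 higher (9.68% higher and 22.6% lower). The microsomal glutathione transferase Mgst1 read 1354, 1504, 3159 and 2774 in wild type and 113, 135, 77.2 and 69.5 in PKBa-/- (-4.03 ± 0.47, adjusted p = 9.3e-05). Wild type replicates 3 and 4 were the brightest, and all PKBa-/- arrays were dim. Gsta4, a transferase for lipid peroxidation products, was lower at 838 ± 141 against 164 ± 15.1 (-2.14 ± 0.19) and Gclm, a subunit of the first enzyme of glutathione synthesis, at 1237 ± 159.9 against 617 ± 117 (-0.97 ± 0.18), whereas Gsto1 was higher at 1227 ± 388 against 3171 ± 256 (1.40 ± 0.27). Hmox1, heme oxygenase 1, did not pass (0.47 ± 0.23, adjusted p = 0.19), and Nqo1 was too dim to be tested, at 79.7 ± 8.16 against 91.3 ± 2.42. Cytosolic heat shock genes were lower in 5 of 24 tested and higher in none (0% higher and 20.8% lower). The small heat shock protein gene Hspb1 read 4071, 4641, 5165 and 5540 in wild type and 907, 898, 717 and 903 in PKBa-/- (-2.46 ± 0.16, adjusted p = 4.7e-07). It was 5.67-fold lower. Its relative Cryab, which encodes alpha B-crystallin, had 968 ± 84.5 against 214 ± 34.2 (-2.03 ± 0.16), and Hsp90aa1 3263 ± 468 against 1709 ± 192 (-0.92 ± 0.25). Ptgis, prostacyclin synthase, read 2062, 2175, 2910 and 3162 in wild type and 107, 86.05, 81.5 and 96.3 in PKBa-/- (-4.37 ± 0.20, adjusted p = 1.8e-08). No PKBa-/- array was near the wild type arrays, while Ptges, prostaglandin E synthase, was higher at 135 ± 8.98 against 235 ± 29.6 (0.67 ± 0.11) and the cyclooxygenase Ptgs2 did not pass (-0.71 ± 0.33, adjusted p = 0.18).

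In the list of antigen presentation, the immunoproteasome and complement, 6 of 13 tested genes were higher and 3 lower (46.2% higher and 23.1% lower). The class I heavy chain gene H2-D1 read 461, 446, 459 and 513 in wild type and 1280, 1293, 1229 and 990.3 in PKBa-/- (1.29 ± 0.17, adjusted p = 2.2e-04). All PKBa-/- arrays were above wild type, and class I genes are near-identical to each other, so that probe sets may read several. Psmb8, a catalytic subunit of the immunoproteasome, was higher at 92.1 ± 5.87 against 218 ± 7.73 (1.01 ± 0.10) and the peptide transporter gene Tap2 at 158 ± 6.52 against 331 ± 28.1 (0.93 ± 0.12). The lower members were genes of the complement system: the C1 protease C1s1 read 2056, 2008, 2126 and 2417 in wild type and 181, 240.3, 139.8 and 127 in PKBa-/- (-3.45 ± 0.26, adjusted p = 1.7e-06), the C1 inhibitor Serping1 544 ± 137 against 38.4 ± 5.48 (-3.003 ± 0.19) and the protease C1ra 710.1 ± 112 against 323 ± 88.5 (-1.09 ± 0.25). Chemokines and NF-kB targets were lower in 7 of 23 tested and higher in none (0% higher and 30.4% lower). Ccl2, which attracts monocytes, read 1043, 949, 2088 and 1175 in wild type and 190.3, 219, 177 and 185 in PKBa-/- (-2.51 ± 0.35, adjusted p = 3.4e-04). Wild type replicate 3 was the brightest array, and all PKBa-/- arrays were below wild type. The stromal chemokine Cxcl12 had 6302 ± 239 against 3026 ± 196 (-1.05 ± 0.17) and Nfkbia, the feedback inhibitor of NF-kB, 2150 ± 50.9 against 952 ± 134 (-1.16 ± 0.21).

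In metabolism, 6 of 26 tested genes of glucose uptake and glycolysis were lower and 1 higher (3.85% higher and 23.1% lower). Pfkfb3, whose product raises the activator of phosphofructokinase, read 262, 253, 235 and 282 in wild type and 86.4, 83.4, 87.6 and 86.4 in PKBa-/- (-1.30 ± 0.14, adjusted p = 5.3e-05). Its values were even within each genotype. The lactate transporter Slc16a1 had 1162 ± 177 against 371 ± 26.5 (-1.56 ± 0.25), the lactate dehydrogenase Ldhb 1819 ± 646 against 698 ± 60.5 (-1.28 ± 0.29) and the phosphofructokinase Pfkp 380.4 ± 136 against 156 ± 9.55 (-1.08 ± 0.24). The glycogen phosphorylase Pygb was higher at 546 ± 40.05 against 1331 ± 98.2 (1.24 ± 0.15). The glucose transporter Slc2a1 did not pass (-0.23 ± 0.16, adjusted p = 0.36).

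Lysosome and autophagy genes were higher in 8 of 34 tested (23.5%, beside 6.48% of all tested genes) and lower in 2 (5.88%, beside 8.34%). Acid ceramidase, encoded by Asah1, had 1170 ± 214 against 2332 ± 142 (0.99 ± 0.23), the sialidase Neu1 235 ± 13.3 against 474 ± 53.5 (0.92 ± 0.13) and the beta-galactosidase Glb1 289.8 ± 27.9 against 552 ± 56.7 (0.86 ± 0.21). Iron genes went both ways, 3 of 14 tested higher and 3 lower (21.4% higher and 21.4% lower). The iron exporter ferroportin, Slc40a1, read 213, 203, 204 and 237 in wild type and 981, 922, 1322 and 1127 in PKBa-/- (2.17 ± 0.18, adjusted p = 3.7e-06). All PKBa-/- arrays were several-fold above wild type. The ferrireductase Steap3 was higher at 197 ± 16.1 against 668 ± 135 (1.59 ± 0.25) and the ferroxidase ceruloplasmin, Cp, lower at 896 ± 428 against 205 ± 13.2 (-1.85 ± 0.41). The transferrin receptor Tfrc, which brings iron in, was lower at 608 ± 54.7 against 332 ± 12.7 (-0.81 ± 0.23, adjusted p = 0.032).

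Genes of the cytoskeleton and of guidance differed in both directions. Of 24 tested contractile and actin genes, 5 were higher and 3 lower (20.8% higher and 12.5% lower). The myosin light chain Myl9 was higher at 879, 936, 332 and 329 in wild type and 2137, 2067, 2354 and 2620 in PKBa-/- (1.99 ± 0.46, adjusted p = 0.012). The myosin light chain kinase Mylk was lower at 648, 603, 1583 and 1604 in wild type and 189, 220.4, 210.5 and 223 in PKBa-/- (-2.09 ± 0.37, adjusted p = 0.0023). Both had wild type pairs well apart, in opposite orders. Of 4 tested markers of smooth muscle and myofibroblasts, 1 was higher and 1 lower. The higher one was the actin gene Acta2, at 6328 ± 876 against 9579 ± 297 (0.61 ± 0.16, adjusted p = 0.024). Tagln, another smooth muscle marker, did not pass (-0.18 ± 0.17, adjusted p = 0.51). Of 6 tested genes of caveolae, the flask-shaped pits of the membrane, 2 were lower and none higher (0% higher and 33.3% lower). Cav2, which encodes a caveolin, differed by -0.66 ± 0.20 (adjusted p = 0.044) and did not pass without wild type replicate 1, wild type replicate 3 or PKBa-/- replicate 4 (adjusted p = 0.0589, 0.053 and 0.0513). Cavin2, a coat protein gene, had 1843 ± 92.8 against 176 ± 49.9 (-3.21 ± 0.27, adjusted p = 4.2e-06), while the main coat gene Cav1 did not pass (0.35 ± 0.17, adjusted p = 0.21). Among 26 tested axon guidance genes, 4 were higher and 4 lower (15.4% higher and 15.4% lower). The higher ones included the netrin receptor Unc5c at 188 ± 12.03 against 594 ± 48.4 (1.505 ± 0.11) and the semaphorin receptor Nrp1 at 507 ± 29.1 against 1303 ± 56.8 (1.31 ± 0.32). The lower ones included the ligand Sema3f at 643 ± 42.6 against 218 ± 37.4 (-1.44 ± 0.13). The receptor gene Notch1 was higher at 99.6 ± 10.8 against 433 ± 67.8 (1.81 ± 0.15, adjusted p = 3.7e-06).

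Immediate early genes, the first to be transcribed after a stimulus, had 3 of 29 tested members higher and 7 lower (10.3% higher and 24.1% lower), with a median of -0.13. The lower ones included Ier3, an early response gene tied to survival, at 1222 ± 33.2 against 378 ± 32.7 (-1.62 ± 0.19), the small Maf factor Maff at 244 ± 12.8 against 95.05 ± 4.01 (-1.12 ± 0.13), the receptor feedback inhibitor Errfi1 at 518 ± 95.8 against 224 ± 41.8 (-1.10 ± 0.25) and the phosphatase Dusp6, which acts on ERK, at 306 ± 52.9 against 141 ± 8.86 (-0.96 ± 0.17). Fos did not pass (-0.002 ± 0.12, adjusted p = 0.99), and no higher or lower call was made for Egr1 (0.97 ± 0.36, adjusted p = 0.097).

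Some of the largest differences were in genes outside the themes above. Higher in PKBa-/- were Rpl39l, a ribosomal protein paralog known mainly from testis, at 57.3, 55.7, 57.5 and 50.8 in wild type and 1049, 1553, 1137 and 907 in PKBa-/- (3.75 ± 0.19, adjusted p = 4.7e-08), and Penk, the enkephalin precursor gene, at 118, 97.1, 231 and 233 in wild type and 2032, 2194, 562 and 686 in PKBa-/- (2.62 ± 0.56, adjusted p = 0.0079). Rpl39l was dim in wild type, while its paralogs could share probe sequence with it. For Penk all PKBa-/- arrays were above wild type, yet replicates 1 and 2 were well above replicates 3 and 4. The band 4.1 gene Epb41l3 had 349 ± 197 against 2569 ± 193 (2.93 ± 0.57), the Notch-related receptor gene Dner 59.1 ± 15.1 against 537 ± 77.9 (2.65 ± 0.19) and Cyba, a subunit of the NADPH oxidase, 52.8 ± 7.90 against 403 ± 51.8 (2.36 ± 0.14). Lower were the annexin Anxa3 at 3564, 3719, 3511 and 3134 in wild type and 105, 136, 41.9 and 68.6 in PKBa-/- (-4.94 ± 0.22, adjusted p = 1.8e-08) and Lbp, which binds bacterial lipopolysaccharide, at 1598, 1630, 2893 and 2921 in wild type and 85.7, 87.9, 96.5 and 139 in PKBa-/- (-4.05 ± 0.27, adjusted p = 5.4e-07). Anxa3 was even in wild type and Lbp brighter in wild type replicates 3 and 4, and both were dim in PKBa-/-. The kinase gene Stk26 had 816 ± 136 against 29.1 ± 1.97 (-3.78 ± 0.18), the tetraspan-like gene Tm4sf1 6771 ± 419.6 against 497 ± 39.6 (-3.69 ± 0.19) and the serpin Serpinb6b 1257 ± 92.8 against 75.2 ± 8.01 (-3.59 ± 0.11).

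A further set of genes gave opposite differences in the 2 replicate pairs, none of which passed. Col12a1, a collagen that associates with fibrils, read 1415, 1536, 303 and 343 in wild type and 711, 592, 692 and 682 in PKBa-/-. Wild type replicates 1 and 2 were above PKBa-/- and wild type replicates 3 and 4 below it, with differences of -1.15 in replicates 1 and 2 and 1.02 in replicates 3 and 4. The secreted protein gene Dkk3 read 916, 922, 172 and 203 in wild type and 362, 336, 296 and 263 in PKBa-/- and differed by -1.32 in replicates 1 and 2 and 0.51 in replicates 3 and 4. The ion pump regulator Fxyd5 (-1.55 in replicates 1 and 2 and 0.18 in replicates 3 and 4), the homeobox gene Irx3 (-1.16 in replicates 1 and 2 and 0.57 in replicates 3 and 4) and Cd302 (0.80 in replicates 1 and 2 and -0.80 in replicates 3 and 4) had the same arrangement, with PKBa-/- arrays close together and wild type pairs on either side, though in Cd302 the lower pair was replicates 1 and 2. The hyaluronan synthase Has2 differed by -0.04 in replicates 1 and 2 and 1.54 in replicates 3 and 4. For these 6 genes no direction between the genotypes could be given.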

How the data were processed

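Affymetrix MOE430A arrays, with 22690 probe sets, were read in 36 samples of wild type and PKBa-/- fibroblasts, of which the 8 at time 0 are compared here. The values are the intensity of each probe set on a linear scale, as the authors deposited them in 1 table per array. The summarisation and normalization behind them are not given in the sources used here, and array medians lay within a ratio of 1.09 of each other. A probe set was named where the platform annotation gave 1 gene (20380 probe sets), and 691 with several genes and 1555 with none were left out.

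Values were taken as log2(signal + 32), the brightest probe set stood for a gene, and the 40% of genes with the lowest mean were not tested. Replicates 1 and 2, and 3 and 4, of a group were averaged, since their residuals correlated at 0.66. The 18 averages were fitted with limma 3.58.1 (R 4.3.3) as 10 genotype-by-time means, with 8 residual and 4.24 prior degrees of freedom, and p was two-sided with Benjamini-Hochberg adjustment over 7436 genes at 0.05. Means ± SD are over 4 arrays. The fit was tested on simulated data.

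The comparison and the gene lists were chosen with earlier results of these data known. Genes to name were drawn from the Akt list, Xist and Y-linked genes, and the 20 highest and 20 lowest differences without overlap. Up to 6 members of each list that passed with the largest difference were added, with central members. Markers with a mean over 200 and the 6 genes with the widest opposite differences between pairs completed the choice. Not every gene so chosen is given: part of the Akt list, Capn6, Fibin and several cell type markers are left out. Fgfr2, Hoxa7, Hoxb4, Hoxc4, Hoxc5, Hoxc9, Id4, Krt7, Meis1, Pola1, Snai2 and the examples among untested genes were added after their values were seen. The alternatives covered arrays as replicates, blocks, samples in the fit, offset, limit on dim genes, probe sets, normalization, variance model and leaving out each array. Promoters are from RefSeq, build GRCm38.p6. The result of 1 gene list is not reported here.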

Additional observations from a re-analysis of the deposited data

Results flagged for a closer look

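In 19 of 464 groups of 4 arrays, taken from the genes looked at, 1 array stood apart from the other 3. Its gap to the nearest, as a share of the range of log2(signal + 32), is given in brackets. That share was over Dixon's critical value for groups of 4. For 4 independent arrays, chance alone sets about 1 in 20 groups apart. Arrays of a pair deviate together here, so the chance rate for these groups is not known. Inppl1 read 1128 in wild type replicate 1, above the 1004 to 1019 of the others (0.869). Nr3c1 read 501 in wild type replicate 4, above the 475 to 477 of the others (0.902). Ptges read 148 in wild type replicate 3, above the 129 to 132 of the others (0.833). Xist read 6064 in wild type replicate 3, above the 5428 to 5486 of the others (0.905). Fos read 172 in wild type replicate 1, below the 187 to 188 of the others (0.911). Kdm5d read 46.5 in wild type replicate 3, below the 54.5 to 56.2 of the others (0.834). Neu1 read 215 in wild type replicate 3, below the 239.9 to 243 of the others (0.901). Pik3r1 read 186 in wild type replicate 3, below the 206 to 208 of the others (0.916). Tap2 read 149 in wild type replicate 3, below the 161 to 162 of the others (0.895). Cd55 read 21.3 in PKBa-/- replicate 4, above the 16.04 to 16.4 of the others (0.936). Cebpb read 1479 in PKBa-/- replicate 2, above the 1288 to 1316 of the others (0.845). Foxf1 read 151 in PKBa-/- replicate 4, above the 122 to 124 of the others (0.916). Pparg read 87.7 in PKBa-/- replicate 1, above the 70.5 to 72.9 of the others (0.851). Rdh10 read 134 in PKBa-/- replicate 2, above the 101 to 103 of the others (0.908). Fos read 154 in PKBa-/- replicate 4, below the 190.2 to 197 of the others (0.861). Hspb1 read 717 in PKBa-/- replicate 3, below the 898 to 907 of the others (0.957). Inppl1 read 659 in PKBa-/- replicate 2, below the 733 to 746 of the others (0.854). Itga3 read 199 in PKBa-/- replicate 2, below the 215 to 218 of the others (0.836). Klf4 read 59.2 in PKBa-/- replicate 4, below the 89.7 to 92.4 of the others (0.931). Wild type replicate 3 was the array apart in 6 of these groups, and PKBa-/- replicates 2 and 4 in 4 each.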

How the results depend on the processing

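Taking arrays as replicates raised the count of genes that passed from 1102 (482 higher, 620 lower) to 3072 (1551 and 1521), the 8 arrays of time 0 alone as replicates to 3380 (1780 and 1600), replicates 1 and 2 alone to 3485 (1801 and 1684) and replicates 3 and 4 alone to 3624 (1787 and 1837). These fits treat arrays that deviate together as independent. Quantile normalization moved the higher count to 737 and the share of higher genes from 43.7% to 53.02%, with 1390 genes in all. Apart from the blocks on replicate numbers given below, the other alternatives stayed within 1.5 times. The count was 1472 with the pair as a random effect, 1067 with time 0 pair averages alone and 1085 to 1118 with other offsets. It was 1353 with no limit on dim genes, 753 with the lowest 60% not tested and 1191 with the mean of all probe sets. Equal array medians gave 1010 and an intensity trend 1085. Of the 1102 genes, 916 passed with time 0 pair averages alone. Leaving out each array gave 1053 to 1184 genes in all, lowest without PKBa-/- replicate 1 and highest without PKBa-/- replicate 2, with 459 to 516 higher and 587 to 668 lower.

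Replicate numbers as a block raised the count to 1887 (896 higher, 991 lower) on pair averages and to 3641 (1894 and 1747) on arrays. Deviations of same-numbered arrays of the genotypes correlated at 0.200, 0.0492, -0.0672 and 0.115. The numbers were therefore not matched between genotypes, and not every array correlated best with its own number. Differently numbered arrays correlated at 0.128 to 0.271 where both were of replicates 1 and 2 or both of 3 and 4. Across these pairs the values ran from -0.331 to 0.0320. The main fit did not take out deviations that the pairs share between genotypes.

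Of the 176 genes that passed and were followed through the alternatives, 162 passed in every alternative that tested them. Calls were lost with the intensity trend for Ccn2, Fgf18, Grb10 and Wnt4, with no limit on dim genes for S100a4 (adjusted p = 0.0507) and 10 others, and without 1 array for 9 genes named in the report. A few genes that did not pass took the opposite sign with a call in 1 pair alone: Cd302 0.80 and Igf1r -0.33 in replicates 1 and 2, Col12a1 1.02, Dkk3 0.51 and Irx3 0.57 in replicates 3 and 4. The cause of these changes was not tested. Dim genes are limited by their signal over background, which the offset of 32 compresses.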

Other observations

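Several dim genes differed by a large factor between the genotypes. Of the genes below the limit for testing, 46 had a mean signal over 200 in 1 genotype at time 0, since the limit was set on the mean over all arrays and times. With no limit, 17 of the 46 were higher and 21 lower in PKBa-/-, beside 139 and 137 of all 4957 untested genes and 628 and 725 of all 12393 genes. Picking genes bright in 1 genotype and dim over all arrays favours a difference between the genotypes, so the counts of the 46 are not evidence of one. The examples were chosen after their values were seen, and their adjusted p is from the fit over all 12393 genes. Tcf21, a helix-loop-helix factor of visceral and epicardial mesenchyme, read 428, 442, 1425 and 1181 in wild type and 33.9, 33.8, 36.4 and 36.3 in PKBa-/- (-3.55 ± 0.43, adjusted p = 3.7e-04). The wild type pairs were several-fold apart and both far above PKBa-/-. Gata4, a zinc-finger factor of heart and visceral mesoderm, was lower at 213 ± 54.2 against 61.3 ± 5.46 (-1.37 ± 0.21), Cd55, a complement inhibitor of the cell surface, at 310.3 ± 75.03 against 17.4 ± 2.58 (-2.77 ± 0.23), and Cnn1, calponin of smooth muscle, at 358 ± 58.8 against 65.7 ± 1.70 (-1.98 ± 0.14). Higher were Epha3, an ephrin receptor, at 23.1, 25.002, 18.5 and 24.9 in wild type and 230.1, 204, 262 and 249 in PKBa-/- (2.29 ± 0.13, adjusted p = 1.2e-06), and Actg2, the gamma actin of enteric smooth muscle, at 67.5, 68.4, 66.1 and 70.4 in wild type and 448, 482, 411 and 439 in PKBa-/- (2.25 ± 0.10, adjusted p = 1.8e-07). All arrays of one genotype were on one side for both. The vasodilator peptide gene Adm was higher at 58.5 ± 19.2 against 370.1 ± 34.7 (2.17 ± 0.17) and the neurotrophic factor gene Artn at 45.9 ± 3.97 against 291 ± 38.1 (2.05 ± 0.09).

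Adhesion and calcium-binding genes held further large differences. Of 29 tested cell adhesion genes 2 were higher and 4 lower (6.9% higher and 13.8% lower). Cadm1, an immunoglobulin-like adhesion molecule, read 287, 307, 539.6 and 507 in wild type and 44.03, 67.4, 52.9 and 69.3 in PKBa-/- (-2.25 ± 0.24, adjusted p = 3.9e-05). The PKBa-/- arrays were all dim. The integrin chain Itga3 was lower at 508 ± 42.95 against 212 ± 8.95 (-1.14 ± 0.13) and the chain Itgb1, a partner of many alpha chains, higher at 2798 ± 438 against 4344 ± 501 (0.64 ± 0.15, adjusted p = 0.015). Of 21 tested S100 and LIM-domain genes 3 were higher and 3 lower (14.3% higher and 14.3% lower). Crip1, a small LIM protein gene, read 3938, 3905, 3652 and 3216 in wild type and 644, 827, 613 and 834 in PKBa-/- (-2.29 ± 0.14, adjusted p = 2.4e-07), and S100a4, the calcium-binding protein used as a fibroblast marker, was higher at 1529 ± 177 against 3399 ± 597 (1.13 ± 0.31, adjusted p = 0.030). Of 17 tested Notch and Hedgehog genes 1 was higher and 2 lower (5.88% higher and 11.8% lower), near the shares of all tested genes. The lower ones, Gas1 at 7792 ± 498 against 3942 ± 357 (-0.98 ± 0.18) and Boc at 663 ± 104 against 371 ± 20.3 (-0.78 ± 0.17), encode co-receptors for Hedgehog ligands. A second Gas1 probe set differed by -1.13, and another, much dimmer, read 164 against 166.

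The following shares of lists again stand beside 6.48% of all tested genes higher and 8.34% lower. Of 18 tested interferon-induced genes 2 were higher and 2 lower (11.1% higher and 11.1% lower), with the ubiquitin ligase gene Trim25 at 294 ± 91.5 against 55.6 ± 12.1 (-1.86 ± 0.24). Of 14 tested glucocorticoid targets and metallothioneins 2 were higher and 3 lower (14.3% higher and 21.4% lower), with Klf9 at 1533 ± 175 against 747 ± 88.8 (-1.01 ± 0.14) and the receptor gene Nr3c1 at 483 ± 12.3 against 332 ± 19.5 (-0.50 ± 0.11) among the lower. Of 34 tested genes of amino acid supply and the ATF4 response 2 were higher and 4 lower (5.88% higher and 11.8% lower), with the glutamine transporter Slc1a5 at 266 ± 27.1 against 117 ± 10.97 (-0.995 ± 0.13). Of 27 tested chaperones of the endoplasmic reticulum 1 was higher, Fkbp9 (0.68 ± 0.14), and none lower (3.70% higher and 0% lower). Of 25 tested apoptosis regulators 2 were higher, Bid (1.22 ± 0.13) and Bok (0.66 ± 0.12), and 1 lower, Dapk1 (-0.89 ± 0.23), which is 8% higher and 4% lower. Of 14 tested clock genes 1 was higher, Rora (0.87 ± 0.24), and 1 lower, Nfil3 (-0.83 ± 0.18), which is 7.14% higher and 7.14% lower. Of 6 tested prostaglandin synthesis genes, Ptges was higher and Ptgis lower (16.7% higher and 16.7% lower), and of 7 tested chondrocyte and osteoblast genes, Sox9 was higher and Mgp lower (14.3% higher and 14.3% lower).

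Of 20 tested G1 cyclins, kinases and inhibitors 1 was higher, the cyclin Ccnd3 at 1051 ± 41.9 against 1658 ± 126 (0.64 ± 0.13), and none lower (5% higher and 0% lower). Of 38 tested ribosome biogenesis genes none was higher and 3 were lower (0% higher and 7.89% lower), a lower share near that of all tested genes, with a median difference of -0.18. Of 53 tested genes of oxidative phosphorylation 1 was higher and 4 lower (1.89% higher and 7.55% lower), with a median of -0.10. Of 24 tested genes of fatty acid synthesis and storage 3 were higher and 3 lower (12.5% higher and 12.5% lower). The acyltransferase Gpam was lower at 782 ± 201 against 291 ± 28.2 (-1.30 ± 0.23) and the lipid droplet coat gene Plin2 higher at 1276 ± 125 against 2221 ± 105 (0.79 ± 0.11).

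Further promoter motifs were searched in the same windows as the E2F cores. The antioxidant response element (TGACNNNGC, both strands) was found in 8 of 26 NRF2 list promoters (30.8%), beside 16.8% of all tested genes with a promoter. AP-1 (TGANTCA) was found in 4 of 19 matrix protease promoters (21.1%) and in none of 23 immediate early gene promoters, beside 5.80%. The sterol response element (TCACNCCAC) was found in 1 of 17 cholesterol synthesis promoters (5.88%), beside 1.40%, and the E2F cores in 2 of 33 mitosis gene promoters (6.06%), beside 14.9%.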
